A study of Homo sapiens with 6 samples.

Results

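The late difference inside pimasertib cultures was the log2 intensity of the 12 h array minus the mean of the 4 h and 8 h arrays, and all 3 of these arrays came from pimasertib-treated cells. They were 3 of the 6 arrays of the series, and no DMSO array entered the difference. A probe was used if it exceeded log2 6.70, the background threshold, in at least 2 of the 3 arrays, which kept 19650 of 47231 probes. These represented 11017 of the 20046 genes on the array, each read through its brightest kept probe, and 2799 of the genes had at least 1 other kept probe. Since there was 1 array at 12 h, the difference is a description with no test, and a gene was called where it was at least 1.5-fold apart.

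The cells were OCI-LY10, an established human line of activated B cell-like diffuse large B-cell lymphoma. They were grown in vitro with pimasertib, which blocks the kinases MEK1 and MEK2, for 4, 8 or 12 h (1 array each), or with the solvent DMSO for 4, 8 or 12 h (1 array each). The line itself is common to all 6 arrays, so the values describe 1 tumour line, and the labels give neither a dose nor a culture number. RNA was measured on Illumina HT-12 bead arrays, and the series belongs to work on pimasertib together with BTK or PI3K-delta inhibitors in aggressive lymphoma.

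MEK phosphorylates ERK, with which the kinase cascade below RAS ends. Active ERK drives immediate early transcription factors such as EGR1, induces its own inhibitors such as the phosphatase DUSP6, and marks the death-promoting protein BIM for degradation. Activated B cell-like lymphomas depend on constant NF-kB signalling from the B cell receptor and MYD88, and MYD88 signalling can also drive interferon production and the interferon-stimulated genes. A comparison of late with early drug exposure asks which transcripts separate only after the first hours.

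B cell genes were expressed throughout. Of 7 B cell markers on the array 6 were measured, with a mean log2 intensity of 9.66, 9.65 and 9.70 at 4, 8 and 12 h of pimasertib, and 7 of 8 markers of activated B cell-like lymphoma averaged 10.17, 10.25 and 10.14. Of 6 T cell markers only CD2 was above background, at 7.70, 7.57 and 7.33, and 2 of 6 myeloid, 1 of 5 fibroblast and 3 of 5 epithelial markers passed. In RNA from a whole culture, fewer cells of a kind and less RNA per cell cannot be told apart. Over genes, the pimasertib arrays of 4 h and 8 h correlated at 0.9954, and the 12 h array correlated with them at 0.9757 and 0.9779. The DMSO array of 8 h stood apart from every other array, with correlations of 0.8984 to 0.9266, so DMSO is given mainly as 12 h minus 4 h. The ERK-induced gene EGR1 was low from the start, with 6.87, 6.74 and 6.62 in pimasertib cultures at 4, 8 and 12 h, against 8.32, 8.77 and 8.85 in DMSO cultures. DUSP6 had 6.89, 6.84 and 7.16 in pimasertib cultures, against 6.76, 6.82 and 6.94 in DMSO cultures. Its only kept probe was near the background threshold of 6.70 with either treatment, so it could hardly show a lower level with the drug. The 15 measured genes of ERK feedback and output averaged 7.71, 7.76 and 7.78 in pimasertib cultures, against 7.99, 8.24 and 8.21 in DMSO cultures.

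At 12 h, 539 of the 11017 genes (4.89%) were at least 1.5-fold apart from their early mean, 199 higher (1.81%) and 340 lower (3.09%). Over single probes, 356 of 19650 were higher (1.81%) and 590 lower (3%). At a 2-fold limit 13 were higher (0.118%) and 59 lower (0.536%). The 8 h array against the 4 h array gave only 17 genes (0.154%) at 1.5-fold. Of the called genes, 132 of those higher and 276 of those lower at 12 h were at least 1.5-fold beyond both early arrays. The genes nearest the limit were MARCO at 0.59 inside and SFXN3 at 0.58 outside, and, on the lower side, HNRNPAB at -0.59 inside and GPR108 at -0.58 outside. With 1 array at 12 h, late exposure and that array cannot be told apart.

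The called share depended on how bright a gene was. In the dimmest quintile of genes 0.363% were called, 8 higher and 0 lower, while in the brightest quintile 9.66% were called, 93 higher and 120 lower. The intermediate quintiles had 4.09%, 4.81% and 5.54%. A gene close to background has little room to be lower, and the SD of the late difference widened across the quintiles to 0.373 in the brightest, against 0.194 in the dimmest. The SD of the difference between 8 h and 4 h lay between 0.113 and 0.153 in all quintiles.

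**Figure D1:**
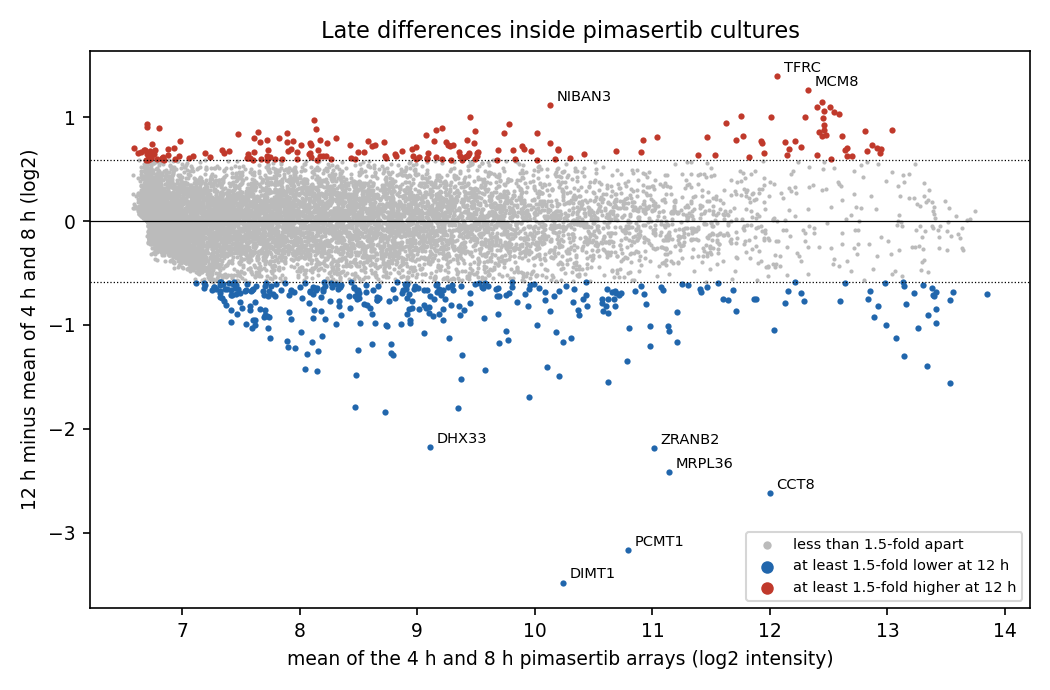
Late difference (vertical axis, log2, 12 h minus the mean of 4 h and 8 h) against the early mean (horizontal axis, log2 intensity) for each of the 11017 genes in pimasertib cultures. Dotted lines mark 1.5-fold, 340 genes lie below the lower one and 199 above the upper one, and DIMT1 (-3.48) and TFRC (1.40) are at the ends.

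The genes furthest below their early level were DIMT1, PCMT1 and CCT8, each several log2 units lower at 12 h. DIMT1, which methylates ribosomal RNA, had 10.27, 10.22 and 6.76 at 4, 8 and 12 h in pimasertib cultures, against 10.37, 10.43 and 10.32 in DMSO cultures (late difference -3.48). PCMT1, an enzyme that repairs damaged aspartyl residues in proteins, had 10.83, 10.75 and 7.63 in pimasertib cultures, against 10.54, 8.36 and 10.53 in DMSO cultures (-3.17). CCT8, a subunit of the cytosolic chaperonin, had 11.93, 12.07 and 9.38 in pimasertib cultures, against 11.90, 12.11 and 12.04 in DMSO cultures (-2.62). For DIMT1 and CCT8 the 12 h pimasertib array was the single low one of 6, while PCMT1 was also low on the DMSO array of 8 h. DHX33, a helicase of ribosomal RNA synthesis (-2.18), SLC30A7, a zinc transporter of the Golgi (-1.79), and CWC15, a spliceosome protein (-1.70), likewise had their lowest value of 6 at 12 h of pimasertib.

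In the rest of the lowest 10, DMSO arrays or other probes of the gene often differed from this pattern. MRPL36, a protein of the mitochondrial ribosome, had 11.21, 11.08 and 8.73 in pimasertib cultures, against 11.15, 11.43 and 9.29 in DMSO cultures, so that both 12 h arrays were low. The zinc-finger splicing protein ZRANB2 differed by -2.18 on its main probe and by -0.41 on its other, and in DMSO cultures by -1.14 between 12 h and 4 h. HSD17B11, a dehydrogenase of lipid droplets, differed by -1.84 on its main probe, by -0.01 and 0.20 on its other probes, and by -1.89 in DMSO. ARMCX2, with -1.80 and no other kept probe, was lower still on the DMSO array of 8 h, at 6.75, but level between 12 h and 4 h of DMSO (0.02). Of the lowest 10 genes, 7 had a 12 h pimasertib value at least 1.5-fold below all 5 other arrays, and only ZRANB2 and HSD17B11 had another kept probe.

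On the higher side the differences were smaller, and they were found among very bright genes. TFRC, the transferrin receptor that brings iron into growing cells, had 12.07, 12.06 and 13.46 at 4, 8 and 12 h in pimasertib cultures, against 11.66, 11.05 and 12.68 in DMSO cultures (1.40). Both 12 h arrays were the highest of their treatment. NIBAN3, a protein found mainly in B cells, had 10.09, 10.17 and 11.24 in pimasertib cultures, against 10.20, 10.30 and 10.09 in DMSO cultures (1.12), so the 12 h pimasertib array alone was high. MDH2, the malate dehydrogenase of mitochondria, differed by 1.09, and SNRPG, a core protein of spliceosomal particles, by 1.05.

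Of the 10 highest genes, 8 had a level above 13 at 12 h of pimasertib, near the upper end of the scale at 13.91. None of the 5 with other probes was at least 1.5-fold higher on them. MCM8, a helicase of recombination repair, differed by 1.26 on its main probe and by 0.05 on its other. The ubiquitin gene UBB had 1.14 and -0.27, TOMM7 of the mitochondrial import channel 1.06 and -0.07, and ATP5PD of the ATP synthase 1.01 and -0.27. CT45A3, a cancer-testis gene of a cluster of near-identical copies, had 1.03 on its main probe and -1.14 and 0.45 on the others. POTEF (1.10) also belongs to a family of near-identical copies, so for both genes the source of the signal is uncertain.

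Other probes could be consulted for 167 of the 539 called genes, 77 higher and 90 lower. In 6 of them (3.59%) every other kept probe was also at least 1.5-fold apart the same way, while the same held for 50 of all 2799 genes with several probes (1.79%), called or not. In 87 called genes (52.1%) all other probes had the sign of the main probe, against 50.8% of all 2799 genes. In 54 (32.3%) none had it, and in 5 another probe was at least 1.5-fold apart the opposite way. Among the 24 genes called at 2-fold with another probe, 0 had every other probe past 1.5-fold, and 11 had all others of the same sign. With other probes at least 1 log2 unit above background, 56 of 97 called genes (57.7%) had all others of the same sign, against 54.7% of the 1151 such genes overall. Over the 2799 genes the late difference of the main probe and the mean of the others correlated at 0.173, points that share their 3 arrays. A call on 1 probe was thus borne out on other probes of the gene in few cases.

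**Figure D2:**
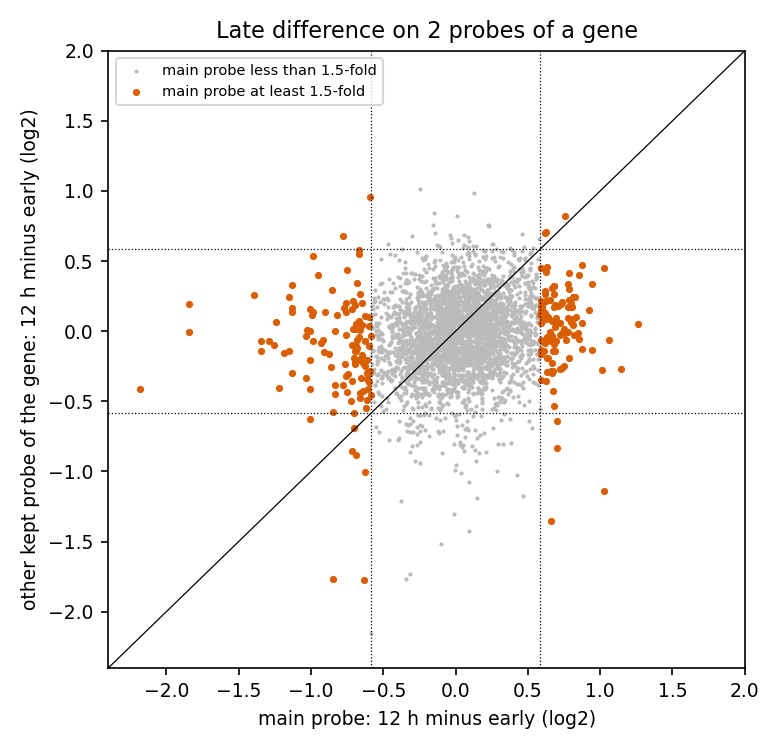
Late difference in pimasertib cultures (log2, 12 h minus the mean of 4 h and 8 h) on the main probe of a gene (horizontal axis) and on each other kept probe (vertical axis), for 2799 genes. Dotted lines mark 1.5-fold, orange points are the 167 called genes, the solid line marks equal differences, and most orange points lie between the horizontal dotted lines.

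The 6 genes past 1.5-fold on every probe, 3 higher and 3 lower (0.107% of the 2799 each), had 2 kept probes each. MID1IP1, which promotes fatty acid synthesis through acetyl-CoA carboxylase, had 8.52, 8.92 and 9.48 at 4, 8 and 12 h of pimasertib on its main probe, against 8.87, 7.88 and 9.21 in DMSO, and 8.08, 8.50 and 9.11 on its other probe, against 8.80, 8.82 and 8.71 in DMSO (late differences 0.76 and 0.82). Both probes were higher at each later time with pimasertib. YY1AP1, a cofactor of the transcription factor YY1, had 9.28, 9.45 and 9.99 on its main probe, against 9.27, 9.13 and 9.22 in DMSO, and 6.84, 6.97 and 7.61 on its other, against 6.75, 7.05 and 6.72 in DMSO (0.62 and 0.71). Its 12 h pimasertib array was the highest of 6 on both probes. CELF1, an RNA-binding protein of mRNA decay and splicing, differed by 0.62 and 0.70, with 7.82, 7.67 and 8.37 on the main probe, against 7.47, 7.29 and 7.90 in DMSO.

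On the lower side these were JMJD8, CDK5RAP3 and the 28S ribosomal RNA gene RNA28SN5. JMJD8, a JmjC-domain protein of the endoplasmic reticulum, had 10.60, 10.71 and 9.97 on its main probe in pimasertib cultures, against 10.56, 9.97 and 11.08 in DMSO cultures, and differed by -0.69 and -0.88. CDK5RAP3, a part of the complex that attaches the ubiquitin-like modifier UFM1, had 9.24, 9.28 and 8.62 on its main probe, against 9.31, 9.96 and 9.46 in DMSO, and differed by -0.64 and -1.77. JMJD8 stood at its highest of the main-probe values in the 12 h DMSO array, and CDK5RAP3 was lowest of 6 at 12 h of pimasertib on both probes. RNA28SN5 differed by -0.84 and -1.77, but its DMSO values of 8.08, 9.72 and 8.80 spread as widely as its pimasertib values, and its probes may read any of the many copies of this RNA.

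**Figure D3:**
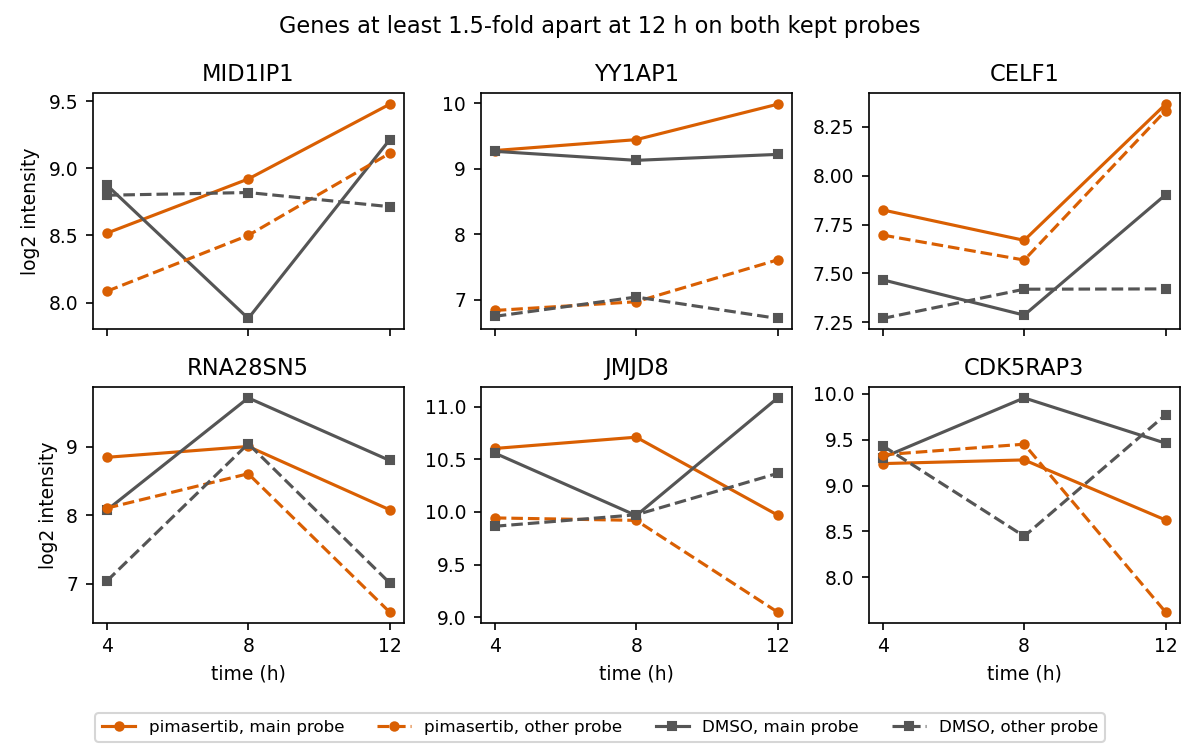
Log2 intensity (vertical axis, scaled per panel) at 4, 8 and 12 h (horizontal axis) for the 6 genes at least 1.5-fold apart on both kept probes. Orange circles are pimasertib and grey squares DMSO, 1 array per point, with the main probe solid and the other dashed, and the orange lines of YY1AP1 end above and those of CDK5RAP3 below the other points of the same probe.

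At a limit of 1.3-fold on every kept probe, 40 genes (1.43% of 2799) were higher and 32 (1.14%) lower at 12 h. Chosen from these after their values were seen, the higher ones included TPI1, a glycolytic isomerase, with 0.58 and 0.66 on its probes, ETS1, a transcription factor of lymphocytes and an ERK substrate, with 0.52 and 0.49, and MCM3, a subunit of the replicative helicase, with 0.56 and 0.39. MARCHF1, a ligase that removes MHC class II from the surface, had 7.65, 7.64 and 8.50 in pimasertib cultures, against 7.38, 7.22 and 8.00 in DMSO cultures. The lower ones included BCL2L1, which encodes the survival protein BCL-XL, with -0.50 and -0.57. BCL2L1 was also lower at 12 h than at 4 h in DMSO, by 0.91 on its main probe, and ETS1 was higher there by 0.67.

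Interferon-stimulated genes lay mostly below their early level at 12 h of pimasertib. Of 31 such genes 29 were measured, 23 of them (79.3%) with a late difference below 0, against 50.8% of all genes. The list held 6 genes at least 1.5-fold lower (20.7%, against 3.09% of all genes) and 0 higher, and its median late difference was -0.19, against -0.01 over all genes. Between 4 h and 8 h of pimasertib only 8 of the 29 were lower, and in DMSO 16 of 29 were lower at 12 h than at 4 h, with a median of -0.02. For the same step of 12 h minus 4 h with pimasertib, 22 of 29 were lower, with a median of -0.15. Taken as 12 h minus the mean of 4 h and 8 h, the DMSO median was -0.33, below that with pimasertib, with 20 of 29 members below 0, 6 at least 1.5-fold lower and 1 higher, and this value rests in part on the DMSO array of 8 h that stood apart. By that measure 1867 of all 11017 genes were at least 1.5-fold apart in DMSO, either way, with a median of 0.02, so calls there were common. The list's median was below 0 with either treatment. Between 12 h and 4 h, DMSO had 6 members at least 1.5-fold lower and 2 higher, where 6.9% of all genes were lower and 4.01% higher. By either measure 0 of the 6 genes called with pimasertib were among the lower DMSO members. In a set of 6 genes, 0 is near the 6.9% over all genes between 12 h and 4 h, so it does not set these genes apart.

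IRF9, the DNA-binding subunit of the interferon-activated complex ISGF3, had 9.74, 9.65 and 8.52 at 4, 8 and 12 h in pimasertib cultures, against 9.50, 9.48 and 9.10 in DMSO cultures (late difference -1.17). ISG15, a ubiquitin-like protein induced by interferon, had 9.57, 9.94 and 8.70 in pimasertib cultures, against 9.54, 10.33 and 9.86 in DMSO cultures (-1.05). For both the 12 h pimasertib array was the lowest of 6. IFIH1, a cytosolic sensor of double-stranded RNA, had 9.04, 8.97 and 8.36 in pimasertib cultures, against 9.03, 9.08 and 8.64 in DMSO cultures (-0.64). IRF1, a transcription factor induced by interferon gamma, had 9.29, 9.31 and 8.68 in pimasertib cultures, against 8.72, 9.47 and 9.20 in DMSO cultures (-0.62). IRF1 at 12 h of pimasertib was within 0.05 of the DMSO value of 4 h, and IFIH1 was the lowest of 6 at 12 h of pimasertib but also low at 12 h of DMSO.

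Of the called members, XAF1 and IFI6 had another kept probe. XAF1, an interferon-induced partner of the caspase inhibitor XIAP, had 8.50, 8.48 and 7.74 in pimasertib cultures, against 8.37, 9.21 and 8.22 in DMSO cultures, with -0.75 on its main probe and -0.43 on its other. IFI6, an interferon-induced inhibitor of viral replication and cell death, had 8.92, 8.80 and 7.87 in pimasertib cultures, against 8.43, 8.58 and 9.24 in DMSO cultures, but only its main probe was lower (-0.99, against 0.12 on the other). The helicase-like SAMD9L (-0.56) and IRF7, the regulator of interferon genes (-0.55, and 0.06 on its other probe), were just short of the limit. BST2, a surface protein that tethers virus particles (0.26), and GBP1, a guanylate-binding GTPase (0.20, and 0.58 on its other probe), lay above their early level.

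Since these genes are known targets of ISGF3, their promoters were read for its binding motif. The interferon-stimulated response element was searched as TTTCNNTTTC, which on the other strand reads GAAANNGAAA, in the 250 bases before each gene's start in RefSeq on GRCh38.p14. It occurred before 16 of the 23 measured interferon-stimulated genes with a promoter sequence (69.6%), against 1014 of 27305 promoters in all (3.71%). That share belongs to a list of known targets and says nothing of the late difference. Of the 16 members with the motif 3 were called lower (18.8%), against 20.7% of the 29 measured members. Of the 6 called genes, ISG15, IFI6 and IFIH1 had the motif (50%, against 69.6% of the list). Their stretches are shown 5′ to 3′ on the gene's strand with the motif in capitals. The stretch of ISG15 lies at chr1:1013364-1013419 (plus strand), that of IFI6 at chr1:27672256-27672368 (minus strand) and that of IFIH1 at chr2:162318685-162318863 (minus strand).
ISG15: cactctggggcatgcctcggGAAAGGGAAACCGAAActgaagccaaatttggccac
IFI6: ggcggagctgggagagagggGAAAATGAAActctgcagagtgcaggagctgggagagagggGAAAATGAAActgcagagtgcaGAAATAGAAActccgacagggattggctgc
IFIH1: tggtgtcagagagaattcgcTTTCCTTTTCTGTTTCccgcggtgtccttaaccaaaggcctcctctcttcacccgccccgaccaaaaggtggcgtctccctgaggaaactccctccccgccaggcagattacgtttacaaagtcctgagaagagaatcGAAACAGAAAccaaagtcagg

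The promoter of ISG15 holds 2 overlapping matches, that of IFI6 3 separate ones, and that of IFIH1 3, the first pair overlapping. Outside the interferon list it occurred before 304 of 8795 measured genes, of which 8 were called lower (2.63%, against 3.09% of all genes) and 2 higher, with a median late difference of 0.01. A match is a description of the sequence and does not show binding.

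NF-kB targets also had several members lower at 12 h. Of 25 genes 24 were measured, 5 at least 1.5-fold lower (20.8%, against 3.09% of all genes), 0 higher, and 16 below 0 (66.7%), with a median of -0.13. These genes were already mostly lower at 8 h than at 4 h, 19 of 24, and in DMSO 14 of 24 were lower at 12 h than at 4 h, 3 of them at least 1.5-fold, with 1 higher. Against the mean of 4 h and 8 h, DMSO had 12 of 24 below 0, 3 at least 1.5-fold lower and 4 higher, with a median of -0.03. By that measure 1867 of all 11017 genes were at least 1.5-fold apart in DMSO, either way. TNF, the inflammatory cytokine, had 8.97, 8.50 and 7.73 in pimasertib cultures, against 9.20, 8.09 and 8.87 in DMSO cultures (-1.0). NFKBIE, the inhibitor IkB-epsilon, had 10.98, 10.92 and 10.15 in pimasertib cultures, against 10.86, 11.12 and 10.73 in DMSO cultures (-0.80). TNF was lower at each later pimasertib time, whereas NFKBIE was apart only at 12 h.

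RELB, a subunit of the alternative NF-kB dimer, had 8.30, 8.21 and 7.48 in pimasertib cultures, against 8.75, 8.42 and 7.63 in DMSO cultures (-0.77). It was the 1 called member also at least 1.5-fold lower between 12 h and 4 h of DMSO. Against the DMSO mean of 4 h and 8 h, 2 called members were at least 1.5-fold lower. CD40, the receptor for T cell help, had 9.31, 9.10 and 8.49 in pimasertib cultures, against 9.05, 9.36 and 9.03 in DMSO cultures, with -0.71 on its main probe and -0.10 on its other. LTA, the cytokine lymphotoxin alpha, had 8.61, 8.52 and 7.95 in pimasertib cultures, against 9.19, 9.48 and 8.74 in DMSO cultures (-0.61). RELB and LTA were lower at 12 h with either treatment. IL6 was just short of the limit at -0.58, NFKB2, the precursor of the p52 subunit, differed by -0.25 and -0.71 on its probes, and IL10 had 0.40 and -0.47.

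**Figure D4:**
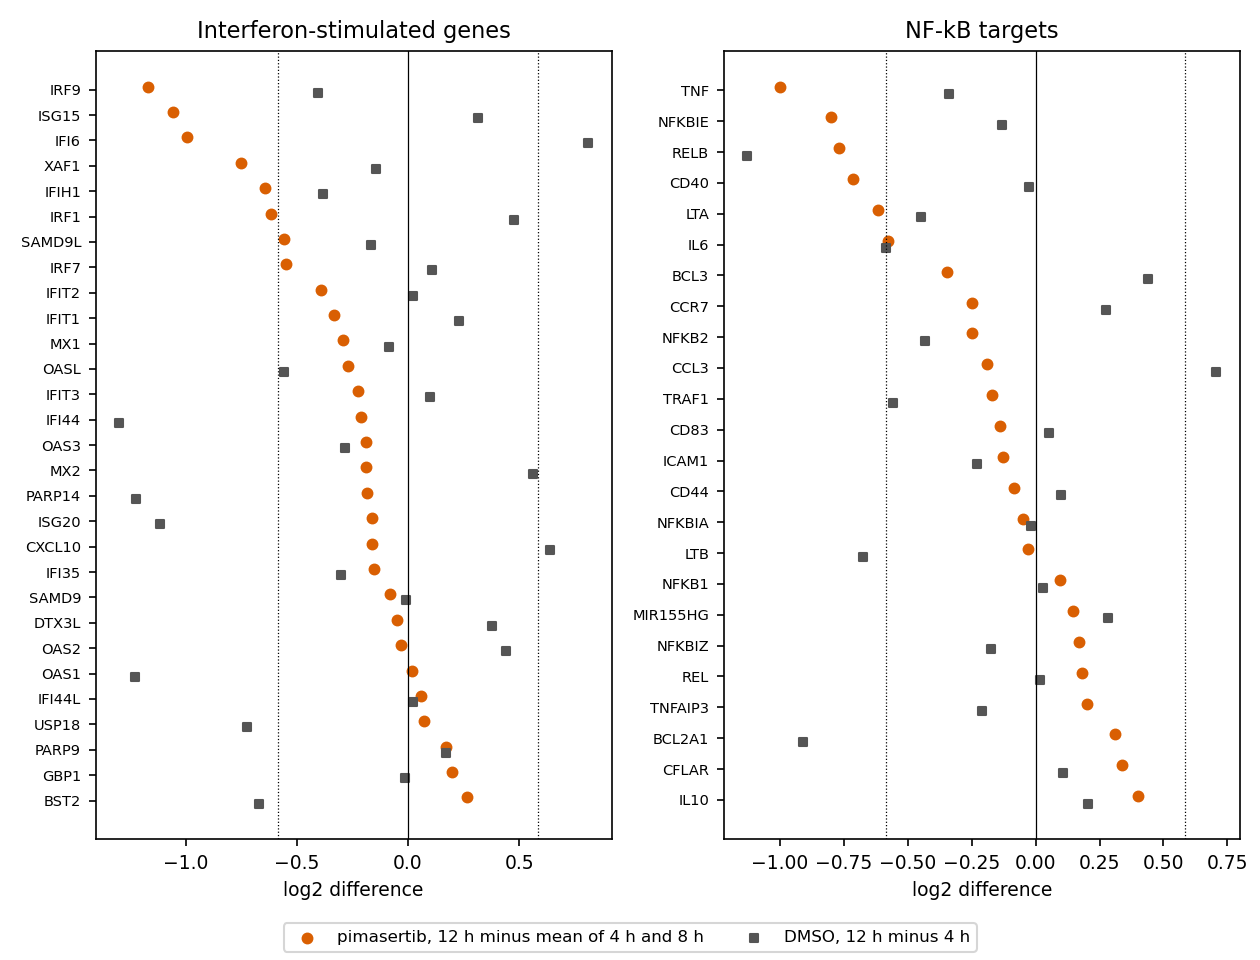
Late difference of each measured member in pimasertib cultures (orange circles, 12 h minus the mean of 4 h and 8 h) and the difference between 12 h and 4 h in DMSO cultures (grey squares), on a log2 horizontal axis, for 29 interferon-stimulated genes (left) and 24 NF-kB targets (right). Dotted lines mark 1.5-fold, and 6 orange circles on the left and 5 on the right lie beyond the lower one.

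Of 15 measured genes of ERK feedback and output 0 were called in either direction, a count near the 4.89% called over all genes. In DMSO their median was 0.34 between 12 h and 4 h, and 0.15 against the mean of 4 h and 8 h. The pimasertib median, built as the latter, was 0.13. The largest differences were those of SPRED1, an inhibitor of RAS signalling (0.40), ELK1, an ERK-activated transcription factor (0.34), and the ERK phosphatases DUSP6 (0.29) and DUSP5 (0.29). Of 18 immediate early genes KLF2 was higher and JUND lower (5.56% each, against 1.81% and 3.09% of all genes). KLF2, a factor of B cell quiescence and homing, had 8.35, 8.63 and 9.16 in pimasertib cultures, against 8.46, 8.16 and 9.18 in DMSO cultures (0.67), so both 12 h arrays were high. JUND, a subunit of AP-1, had 11.12, 11.07 and 10.43 in pimasertib cultures, against 11.21, 10.60 and 10.75 in DMSO cultures (-0.66). The lists of RAS, RAF, MEK and ERK genes (21 measured), B cell receptor signalling (22), PI3K, AKT and mTOR (18) and the JAK-STAT3 axis (17) held 0 called genes in either direction, which in lists of this size is also near the 4.89% over all genes.

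Among 17 BCL2 family genes the only one called was BCL2L11, which encodes BIM. It had 9.10, 8.71 and 8.28 at 4, 8 and 12 h in pimasertib cultures, against 8.85, 8.30 and 8.76 in DMSO cultures (-0.63). Its other probes differed by -0.25 and -1.0, so all 3 probes were lower at 12 h, and on each of them the 4 h value was the highest of the 3 times with pimasertib. The death-promoting genes BAD (-0.53) and BAX (-0.52, and -0.33 on its other probe) were below their early level, as was BCL2L1, and MCL1 (0.19) and BIK (0.18) were slightly above it. Of 23 genes of lymphoma and plasma cell identity only ELL2, an elongation factor of immunoglobulin secretion, was called (0.62). IRF4 differed by -0.37, PRDM1 by 0.33 and BCL6 by 0.27, and of 12 MHC class II genes only HLA-DMA, which edits the peptides they carry, was called (-0.68). In each of these lists 1 called gene is near the 4.89% called over all genes.

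Cell cycle genes were divided. In the list of D cyclins, cyclin-dependent kinase inhibitors and the RB family, 3 of 18 were higher (16.7%, against 1.81% of all genes) and 2 lower (11.1%, against 3.09%). BTG1, an antiproliferative gene, had 12.51, 12.40 and 13.34 in pimasertib cultures, against 12.44, 11.60 and 12.49 in DMSO cultures (0.88). RB1, the retinoblastoma protein, had 8.72, 8.76 and 9.35 in pimasertib cultures, against 8.08, 8.01 and 7.23 in DMSO cultures (0.61), so that its 12 h array was the highest with pimasertib and the lowest with DMSO. CDKN1B, the inhibitor p27, had 8.87, 9.03 and 9.64 in pimasertib cultures, against 9.04, 8.41 and 8.75 in DMSO cultures, with 0.69 on its main probe and 0.19 on its other. CDK6, the kinase that pairs with D cyclins, was lower (-0.86), as was RBL1, which encodes p107 (-0.78), while CCND2 differed by 0.09 and MYC by -0.23 on their main probes and by 0.56 and 0.52 on the others.

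DNA replication genes had the lowest median of all lists drawn, -0.20, and 25 of 34 lay below 0, but only 2 were called lower and 1 higher. These shares, 5.88% and 2.94%, stand against 3.09% and 1.81% of all genes. The called ones were CDT1, the origin licensing factor (-0.70), GINS4, a subunit of the replicative helicase complex (-0.60), and PRIM1, the DNA primase (0.84 on its main probe, -0.01 on its other). In DMSO the median was -0.10 between 12 h and 4 h, but 0.07 against the mean of 4 h and 8 h. Of 31 genes of G2 and mitosis, PTTG1, or securin (0.68), and the kinase NEK2 (0.59) were higher on probes that their other probes did not follow, and the checkpoint gene BUB3 was lower (-0.75) on 1 of 3 probes. That is 6.45% higher and 3.23% lower, against 1.81% and 3.09% of all genes. Of 15 histone genes 3 were lower (20%, against 3.09% of all genes): H4C3 (-1.56), with 13.50, 13.56 and 11.97 in pimasertib cultures, against 13.55, 13.54 and 13.37 in DMSO cultures, H2AJ (-0.76) and H2AZ1 (-0.60). The last of these are variants made outside S phase as well, unlike H4C3.

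Growth and translation genes showed single members apart rather than whole groups. Of 28 genes of ribosome biogenesis and MYC-linked growth 20 lay below 0, with a median of -0.17. In DMSO their median was 0.18 between 12 h and 4 h, and 0.11 against the mean of 4 h and 8 h. With pimasertib TFRC and ODC1, the first enzyme of polyamine synthesis (0.66), were higher, and NOP58, a core protein of snoRNA particles, was lower (-0.63). That is 7.14% higher and 3.57% lower, against 1.81% and 3.09% of all genes. Of 30 ribosomal proteins RPS14 (-1.39, and 0.26 on its other probe), RPS19 (-1.03) and RPLP2 (-0.72) were lower (10% of the list, against 3.09% of all genes), while the list's median was 0.04. Of 30 translation factors 3 were lower (10%) and 2 higher, EIF4A3 (0.82) among those higher. The ribosomal proteins averaged 12.36 and the translation factors 10.77 at 4 h of pimasertib, both within the brightest quintile. In that quintile calls were more frequent, with 120 of 2204 genes lower and 93 higher. EEF1B2 was lower on its main probe (-1.01), and its other probes differed by -0.63, 0.0006 and 0.16. EIF5A differed by -0.82, and EEF1A1 by -0.71, with -0.69, -0.58 and -0.19 on its other probes. Ribosomal protein and EEF1A1 probes can also read processed pseudogenes, so these values are uncertain.

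Metabolic lists were mixed as well. Of 19 glycolysis genes 3 were higher (15.8%, against 1.81% of all genes): HK2, the first kinase of the pathway (0.80, and 0.06 on its other probe), LDHB, a lactate dehydrogenase subunit (0.70), and ENO1, the enolase (0.69). The list averaged 10.07 at 4 h of pimasertib, within the brightest quintile, where 93 of 2204 genes were higher. GAPDH was lower on its main probe (-0.68), and its other probes lay between -0.06 and 0.34. Of 21 genes of sterol and fatty acid synthesis CYP51A1 (-0.95) and FASN, the fatty acid synthase (-0.91), were lower and the desaturase FADS1 higher (0.68). These were 9.52% lower and 4.76% higher, against 3.09% and 1.81% of all genes. FASN had 10.35, 10.40 and 9.47 at 4, 8 and 12 h in pimasertib cultures, while in DMSO cultures the 12 h array exceeded that of 4 h by 1.07, so its 12 h array was the lowest with pimasertib and the highest with DMSO. COX7C of the respiratory chain (0.86) and the amino acid response factor CEBPB (-0.98) were further single members past the limit.

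**Figure D5:**
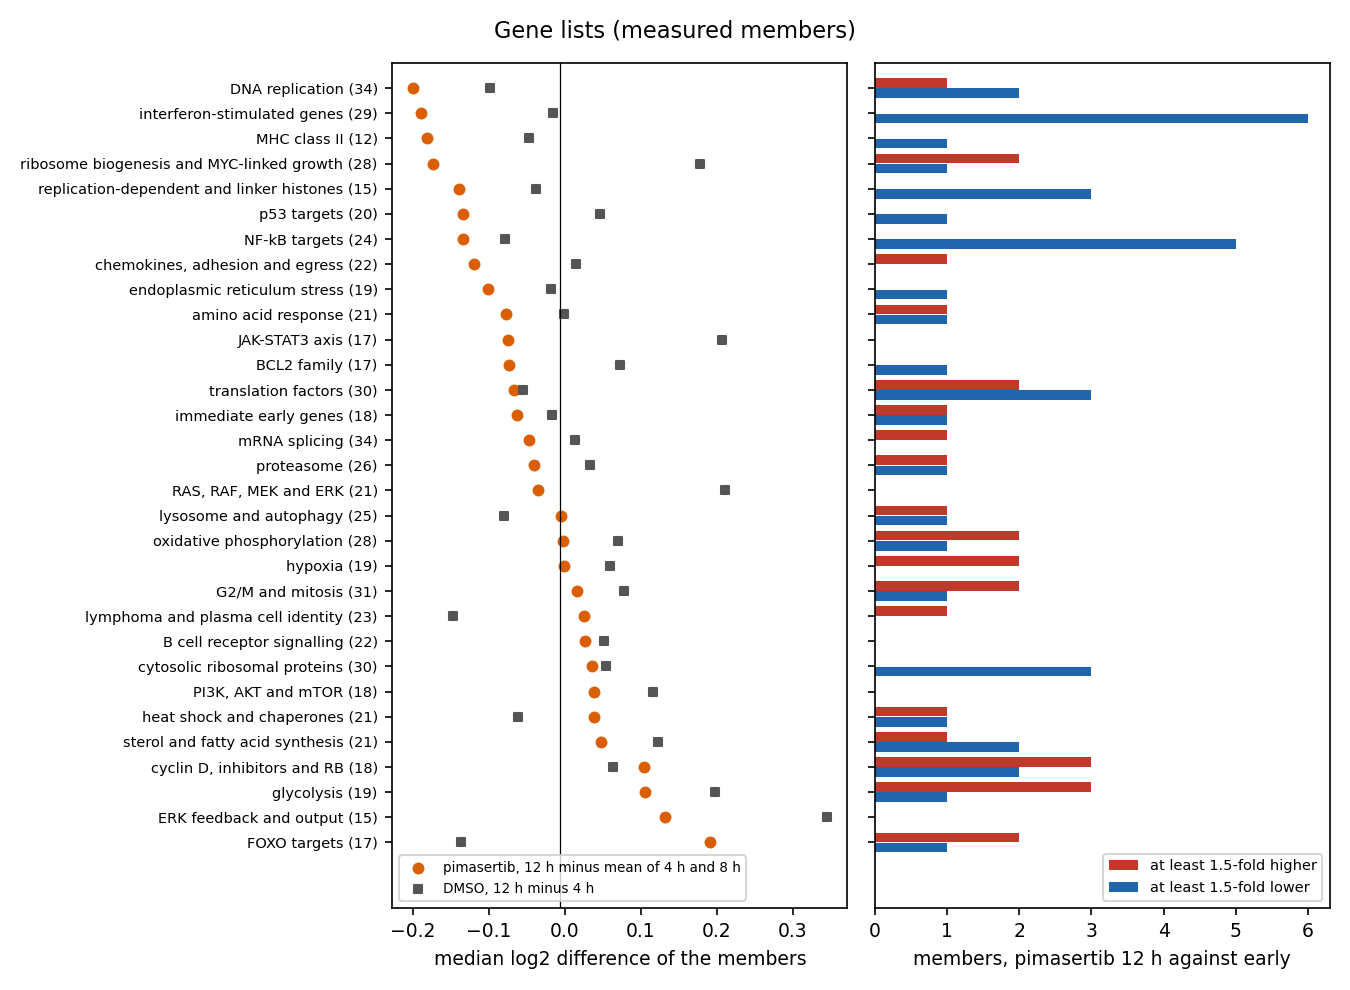
Median log2 difference of each of 31 gene lists (left, with measured members in brackets) in pimasertib cultures at 12 h against early (orange circles) and in DMSO cultures at 12 h against 4 h (grey squares), with a vertical line at the median of all genes, -0.01. Bars on the right count the members at least 1.5-fold higher (red) or lower (blue) at 12 h of pimasertib, 6 lower for interferon-stimulated genes and 5 for NF-kB targets.

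Between 12 h and 4 h of DMSO, 442 genes (4.01%) lay at least 1.5-fold above and 760 (6.9%) at least 1.5-fold below their 4 h level. Of the 199 genes higher at 12 h of pimasertib 19 (9.55%) were also higher in DMSO and 13 were lower there, and the 19 made up 4.30% of the DMSO genes. Of the 340 lower genes 31 (9.12%) were also lower in DMSO, or 4.08% of the DMSO genes, and 23 were higher there. Both same-direction shares exceed those over all genes, 4.01% and 6.9%. Of the lower genes, however, the 6.77% that were higher in DMSO also exceed the 4.01% over all genes. Of the higher genes, the 6.53% that were lower in DMSO are near the 6.9%. The SD of DMSO 12 h minus 4 h was 0.224 in the dimmest quintile and 0.607 in the brightest, where most calls were made. The shares therefore do not show a shared direction. Against the DMSO mean of 4 h and 8 h, 1867 of the 11017 genes were at least 1.5-fold apart. By that measure 33 of the 199 were also higher and 12 lower, and 34 of the 340 were also lower and 38 higher. Among the lower genes more thus went the opposite way than the same way. The share over all genes was counted only for both directions together, so these counts are not read as an overlap. Over all genes the pimasertib difference correlated at 0.0858 with DMSO 12 h minus 4 h, and at 0.0740 with the DMSO difference built alike. Compared with all 5 other arrays, 54 of the higher genes (27.1%) and 118 of the lower ones (34.7%) had a 12 h pimasertib value at least 1.5-fold beyond every one.

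The fits across all genes cannot serve as replicate tests. Within pimasertib, limma with Benjamini-Hochberg adjustment called 2603 genes (23.6%; 38.6% at an unadjusted p of 0.05) at 12 h against early, with 1 residual degree of freedom that is the step between 4 h and 8 h, and the single 12 h array assumed to vary as the early ones do. The difference between the late pimasertib and the late DMSO effect, fitted in limma to all 6 arrays with 2 residual degrees of freedom, called 0 genes after adjustment, and 726 (6.59%) passed an unadjusted p of 0.05. The smallest adjusted p there was 0.27, for LDHB, with a difference of 4.27, and for DIMT1, with -3.40. LDHB was far lower at 12 h than at 4 h of DMSO (-3.46), while the DMSO values of DIMT1 were level. With each pimasertib array paired to the DMSO array of its hour, a fit added after seeing the data that leaves 1 residual degree of freedom, limma called 122 genes after adjustment. Without the DMSO array of 8 h or of 4 h, the spread of the unpaired fit rests on the early pimasertib step alone. Its early DMSO level is then 1 array, which without that of 4 h is the 8 h array that stood apart.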

How the data were processed

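Total RNA was column-purified, checked for integrity and turned into biotinylated cRNA, per the labels' protocols. The values deposited by the authors are log2 intensities of 47231 probes (6.20 to 13.91, median 6.63 on every array). Base 2 was inferred from this range, and sorted columns differed by at most 9e-04, so the deposited log2 values are quantile-normalized. The sources used here do not name the software or any background correction. The deposited intensities from before normalization were left out, since their 6 value columns match no label.

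The background threshold was the most frequent value, 6.49, plus 3 SDs of 0.070. The platform annotation tied 30113 probes to 1 gene, 8 to several and 17110 to none, and 30074 matched RefSeq. Each gene was read through its kept probe of the highest mean. Fits used limma 3.58.1 (R 4.3.3, statmod 1.5.0), two-sided with Benjamini-Hochberg adjustment at 0.05, and the code was tried on simulated data. There each gene had the same noise on every array. The simulation therefore could not check whether the single 12 h array varies as the early ones do. The p-values of the fits reflect the spread of the deposited arrays alone, possibly technical, since the labels name no separate cultures. The number of arrays limits the precision.

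The members and the gene lists were chosen with earlier results of these data known. Named genes were those past 1.5-fold on every probe (up to 15 a direction), the 10 largest differences a direction, up to 4 members a list of the largest difference, and 16 set genes. Alternatives were other filters and thresholds, the mean over probes, other normalizations, another variance prior and single arrays left out. Comparing only bright other probes and pairing the treatments by hour were added after seeing the data.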

Additional observations from a re-analysis of the deposited data

How the results depend on the processing

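The 199 higher genes became 128 with the mean over kept probes, 13 at 2-fold and 336 with normexp at an offset of 50, and the 340 lower genes became 59 at 2-fold and 514 with normexp. Under the other alternatives run (filters on dim probes, cyclic loess, 1 early array left out) the counts were 173 to 265 higher and 312 to 402 lower, and the mean over kept probes gave 273 lower. The share of called genes with all other probes of the same sign was 45.8% to 57.7%. The fit within pimasertib called 2003 to 3240 genes, and gave no value with 1 early array left out. The fit of the difference between treatments called 0 genes under each alternative run with all 6 arrays except the pairing by hour, and 3 to 5307 genes with 1 array left out, the lowest without an early pimasertib array and the highest without the DMSO array of 4 h. Called named genes kept their sign in 662 of 662 alternative values and stayed past the fold in 623. These genes were already past the fold, and every alternative used the same 12 h array. The kept sign was thus largely fixed in advance and is no measure of repeatability. Interferon-stimulated genes at least 1.5-fold lower numbered 5 to 8 and NF-kB targets 4 to 6 outside the 2-fold limit, where they were 2 and 0. The single 12 h array could not be left out, and dim genes have little room below their early level. With the hour as a replicate block, which pairs the treatments by hour and was added after seeing the data, the fit of the difference between treatments called 122 genes, against 0 without it, on 1 residual degree of freedom, so this call depends on the pairing.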

Other observations

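Several small noncoding RNAs, chosen after their values were seen, were lower at 12 h of pimasertib. RNU1-1, a gene of the U1 RNA that recognises 5′ splice sites, had 8.99, 8.90 and 7.99 at 4, 8 and 12 h in pimasertib cultures, against 9.02, 8.93 and 9.20 in DMSO cultures. The U1 genes RNVU1-18 (-0.89) and RNVU1-7 (-0.76) were also called, and RNU1-3 differed by -0.40, so 3 of 4 measured U1 genes were at least 1.5-fold lower. These genes are near-identical copies whose probes may read the same RNA. Of 14 measured snRNA genes 4 were lower (28.6%, against 3.09% of all genes) and 12 lay below 0 (50.8% of all genes did). Of the 4 called, 3 were these U1 genes and the last was SNAR-A1 (-0.60), so the count does not describe the class.

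SNORD3A (-0.74) and SNORD3D (-0.99), copies of the U3 RNA that acts in cleavage of ribosomal RNA precursors, were lower, as were SNORD80 (-1.44) and the Y RNA RNY4 (-0.73), while SNORD36A was higher (0.89). Over 153 measured snoRNA genes 3 were lower (1.96%, against 3.09% of all genes) and 1 was higher (0.654%, against 1.81%). Of the 153, 67 lay below 0. RNA18SN5, a ribosomal RNA gene with near-identical copies, had 11.29, 11.12 and 10.05 in pimasertib cultures, against 9.87, 9.15 and 11.44 in DMSO cultures, so the 12 h array was the lowest with pimasertib and the highest with DMSO. Of 51 measured microRNA genes 0 were at least 1.5-fold apart, by fold alone and with no test. Of these 33 lay in the dimmest quintile, where 0.363% of all genes were called, so the count is near the background.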
